A study of Brassica napus with 48 samples.

Results

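Among the genes expressed in rapeseed (Brassica napus) seeds, 200 were described here whose normalized transcript level in the spring hybrid Lumen was lower at 14 days after flowering (DAF) than at 7 DAF, while it differed little between shaded and control plots and between sowing dates. They were chosen from the 24 Lumen libraries. The values were put on a log2 scale as log2(TPM + 0.5), where TPM is the abundance of transcripts relative to all those of a library, and genes that averaged 5 TPM or more were kept. Genes whose mean difference was under 0.5 on the log2 scale, in either direction, between shaded and control plots at 7 DAF, between shaded and control plots at 14 DAF, and between late and optimal sowing date were then ranked by the difference between 14 and 7 DAF, and the 200 lowest were taken. The rule leaves out 4 genes by name. Of 101040 genes listed, 29160 reached 5 TPM, 22609 of these (77.5%) lay within the 3 limits, and the 200 members came from these.

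RNA came from seeds of 2 spring hybrids, Solar and Lumen, which were grown in field plots sown at a late (labelled Delayed) or an optimal date. The source–sink (S–S) ratio, which is the supply of assimilates per growing seed, was lowered by black nets that intercepted 75% of the incoming radiation from the start of flowering until 15 DAF, and control plots had no nets. Each of the 16 groups, set by hybrid, sowing date, S–S ratio and time, held 3 replicates from a split-split plot design, and a library pooled seeds of 25 siliques from each of 5 plants, so its RNA is a mixture of embryo, endosperm and seed coat.

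Early after fertilization a rapeseed seed is mostly endosperm and seed coat, whose cells divide and then expand, and the embryo fills the seed only later, when it lays down oil and storage proteins. Dividing cells need new histones, the proteins around which DNA is wrapped, and most histone genes are read mainly while DNA is copied. Proteases and their inhibitors, cell wall enzymes and surface proteins of the epidermis take part in the growth and remodelling of these tissues. The libraries are bulk samples, in which fewer cells of a type and less RNA per cell cannot be told apart.

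The sums of the normalized TPM lay between 908993 and 1219379 per library, and the number of reads behind a value is unknown. The genotype labels were checked with 47 genes found in the late-sown 14 DAF libraries of Solar but not in those of Lumen and 51 genes of the opposite kind. The share of Solar transcripts was at most 1.69% in libraries labelled Lumen. In the 18 libraries labelled Solar that had not set these genes it ranged from 1.34 to 99.8%, with 9 under 50%, 2 of these under 2%, and 5 at 99% or more. Its median was 99.1% in the shaded and 87.0% in the control late-sown plots at 7 DAF, and in the optimal sowing date it was 99.6% (shading) and 41.3% (control) at 14 DAF and 18.7% (shading) and 42.5% (control) at 7 DAF. The Solar share therefore moved with time, sowing date and S–S ratio. Results of the libraries labelled Solar are given below as labelled, then within the late-sown libraries alone, and then with the share of Solar transcripts as a covariate. Markers that define cell types were few among the annotated genes. Of 14 embryo and storage markers 2 genes were matched, and of 10 endosperm markers none was matched. An oleosin had a median of 0 TPM in every combination of genotype and time. BnaC05g40970D, closest to the oleate desaturase gene FAD2, had 131 to 236 TPM (median 179) in Solar at 14 DAF, against 61 to 156 TPM (median 88.5) at 7 DAF, a rise of 0.94 on the log2 scale (adjusted p = 9.31e-07), and 66 to 148 TPM (median 106.5) in Lumen at 14 DAF, against 63 to 98 TPM (median 73.5) at 7 DAF. The 5 matched seed coat genes had a summed level of 75 to 497 TPM (median 130.5) in Solar at 14 DAF, against 27 to 132 TPM (median 75) at 7 DAF, and of 95 to 1385 TPM (median 338) in Lumen at 14 DAF, against 25 to 170 TPM (median 76.5) at 7 DAF. The 6 matched silique wall and leaf genes, one of them a member, summed to 185 to 340 TPM (median 226.5) in Solar at 14 DAF, against 202 to 781 TPM (median 277.5) at 7 DAF, and to 161 to 544 TPM (median 250.5) in Lumen at 14 DAF, against 225 to 500 TPM (median 320) at 7 DAF. Genes of the silique wall and leaf list did not move alike in Solar. BnaA07g14420D fell (-1.11, limma adjusted p = 7.49e-05), whereas BnaUnng05090D rose (0.73, adjusted p = 1.82e-05). Several of the seed coat genes are copies of a chalcone synthase gene. The sums are therefore not read as shares of tissues. The part of these shifts in marker levels in the results that follow was not tested.

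In Lumen, where the genes were chosen, the mean log2 difference between 14 and 7 DAF ran from -1.65 to -0.69 with a median of -0.80, and 30 members were at or below -1. These values are the rule itself and carry no test. The mean level of the members ran from 5 to 1383 TPM with a median of 12.6 TPM, so that 82 members lay under 10 TPM, 18 at 100 TPM or more and 2 at 1000 TPM or more. The last members inside the limit of 200 were BnaC01g37160D (-0.69331), BnaC03g60280D (-0.69287) and BnaA10g13680D (-0.69248), and the first genes outside it were BnaA07g35370D (-0.69165), BnaA03g02890D (-0.69156) and BnaC04g13380D (-0.69089). The boundary thus cuts through genes that hardly differ. In all, 1566 genes had a difference between times as low as that of the last member, and 1366 of them were set aside because a limit was exceeded, so the members are 12.8% of the falling genes. The limit on shading at 14 DAF was exceeded by 840 of the genes set aside, of which 818 were higher under shading, and the limit on sowing date by 1055, of which 1001 were lower in the late sowing date.

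Small differences within the limits leaned the same way. The shading minus control difference of the members in Lumen at 14 DAF had a median of 0.25 and was above 0 in 167 of 200 members, against 47.1% of all genes within the limits. At 7 DAF it had a median of 0.05 and was above 0 in 106 members. The late minus optimal difference had a median of -0.33 and was below 0 in 182 members. The members are therefore named here by the rule and not as genes that ignore light.

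The gene with the lowest difference in Lumen was BnaA10g01740D, which has no annotation in the sources used here. Its level was 4 to 17 TPM (median 7) in Solar at 14 DAF, against 14 to 40 TPM (median 25.5) at 7 DAF. In Lumen it was 3 to 20 TPM (median 6) at 14 DAF, against 13 to 31 TPM (median 21) at 7 DAF. In each genotype the ranges overlapped only through 1 shaded, optimally sown library of 14 DAF. Its difference in Solar, the test that the rule did not use, was -1.65 ± 0.15 (log2 ± standard error, limma adjusted p = 4.45e-07), which is as large as in Lumen.

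The other members among the 10 lowest behaved less alike. BnaC07g22850D, an unannotated gene of low level, had 2 to 6 TPM (median 4) in Solar at 14 DAF, against 8 to 13 TPM (median 10) at 7 DAF, and 1 to 10 TPM (median 3) in Lumen at 14 DAF, against 7 to 16 TPM (median 9.5) at 7 DAF. Its Solar libraries of the 2 times did not overlap, and it fell by 1.22 ± 0.10 on the log2 scale (adjusted p = 1.41e-07). BnaA09g29480D had 0 to 4 TPM (median 2) in Solar at 14 DAF, against 1 to 10 TPM (median 6) at 7 DAF, and 1 to 8 TPM (median 3) in Lumen at 14 DAF, against 6 to 17 TPM (median 8.5) at 7 DAF. Its fall of 1.20 ± 0.25 (adjusted p = 0.00129) did not pass within the late-sown libraries (-1.30, adjusted p = 0.0726) or with the Solar share as a covariate (-0.65, adjusted p = 0.0838). BnaA05g00280D had 8 to 39 TPM (median 14.5) in Solar at 14 DAF, against 17 to 61 TPM (median 28.5) at 7 DAF, and 7 to 23 TPM (median 11) in Lumen at 14 DAF, against 14 to 53 TPM (median 26.5) at 7 DAF. It fell by 0.84 ± 0.14 (adjusted p = 0.000173), and its ranges overlapped in both genotypes.

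For 5 of the 10 the Solar libraries showed no fall that passed the test, although Lumen put these genes near the top. BnaA05g37040D had 8 to 137 TPM (median 27.5) in Solar at 14 DAF, against 23 to 101 TPM (median 34.5) at 7 DAF, and 2 to 65 TPM (median 32.5) in Lumen at 14 DAF, against 45 to 177 TPM (median 71) at 7 DAF, and a single shaded, late-sown Solar library held its highest value at 14 DAF. BnaA06g22570D had 2 to 6 TPM (median 3) in Solar at 14 DAF, against 2 to 6 TPM (median 4) at 7 DAF, and 1 to 10 TPM (median 2.5) in Lumen at 14 DAF, against 5 to 16 TPM (median 8) at 7 DAF. BnaA07g30540D had 2 to 14 TPM (median 5.5) in Solar at 14 DAF, against 3 to 9 TPM (median 7) at 7 DAF, and 1 to 9 TPM (median 3) in Lumen at 14 DAF, against 4 to 24 TPM (median 9) at 7 DAF. The Solar ranges of the times overlapped for each of these genes. BnaC03g62640D had 5 to 22 TPM (median 11.5) in Solar at 14 DAF, against 8 to 42 TPM (median 16.5) at 7 DAF, and 3 to 19 TPM (median 5.5) in Lumen at 14 DAF, against 7 to 24 TPM (median 17.5) at 7 DAF. BnaA02g05080D had 3 to 34 TPM (median 6.5) in Solar at 14 DAF, against 4 to 16 TPM (median 8) at 7 DAF, and 1 to 8 TPM (median 3) in Lumen at 14 DAF, against 3 to 25 TPM (median 6.5) at 7 DAF. The adjusted p of the 5 genes in Solar lay between 0.0865 and 0.684. The remaining gene of the 10 is the cystatin described with the annotated members.

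**Figure D1:**
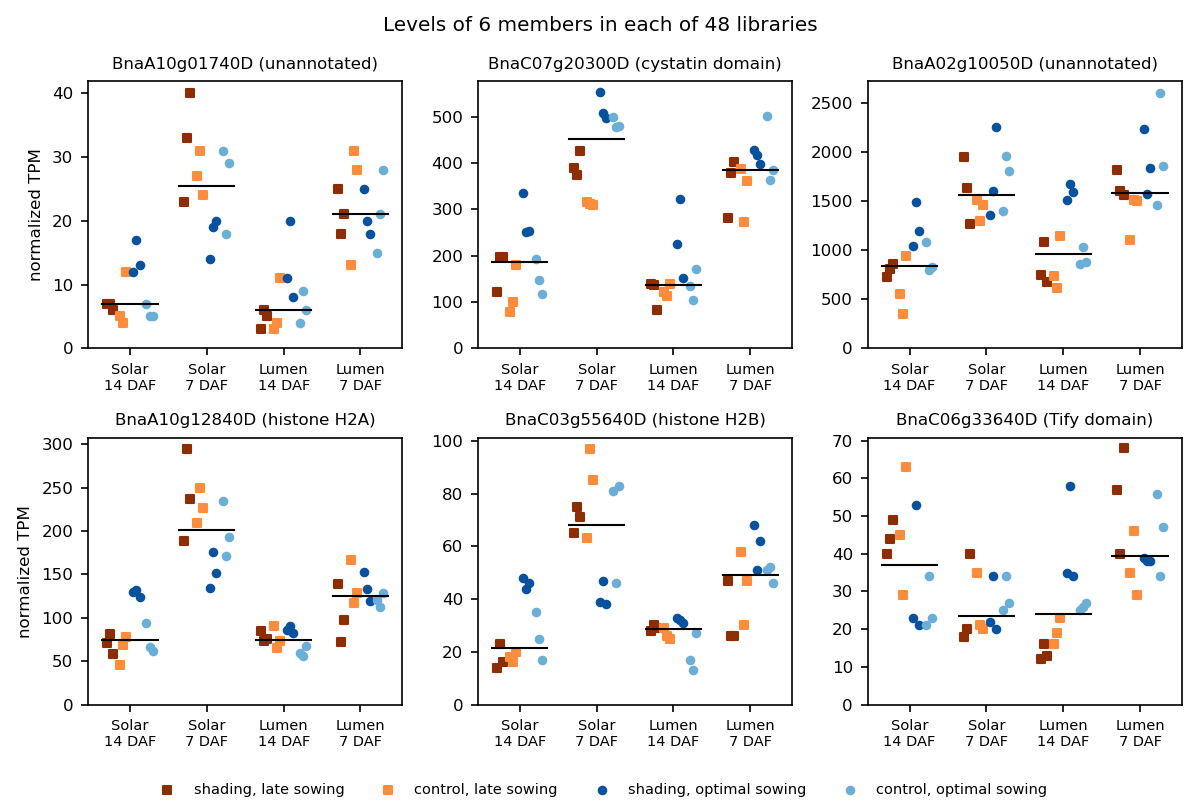
Normalized TPM (y axis) of 6 members in each of the 48 libraries, by genotype and time (x axis), with 1 symbol per library for S–S ratio and sowing date and a bar at the median of 12 libraries. The histone H2A gene BnaA10g12840D is at 46 to 132 TPM in Solar at 14 DAF, against 134 to 295 TPM at 7 DAF, whereas the TIFY gene BnaC06g33640D is at 21 to 63 TPM in Solar at 14 DAF, against 18 to 40 TPM at 7 DAF.

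The libraries labelled Solar hold the same measure in samples that the rule did not use. All 200 members were among the 53781 genes tested there with limma (difference between the means of 14 and 7 DAF over the 4 combinations of S–S ratio and sowing date, Benjamini-Hochberg adjusted p under 0.01). Lower levels at 14 DAF passed the test for 106 members (53.0%), where 11.1% of all genes passed in that direction. A higher level passed for 1 member, where 11.8% of all genes passed, and for 2 or 3 when any 1 of 6 libraries was left out (replicate 1 of control and 3 of shaded optimally sown plots and replicates 2 and 3 of shaded late-sown plots at 7 DAF, and replicates 2 and 3 of control optimally sown plots at 14 DAF). For those 6 fits the share of all genes is not given. The median difference of the members was -0.53 (quartiles -0.83 and -0.28), against 0.01 over all genes, and 174 members lay below 0. At an unadjusted p under 0.05, 150 members and 24295 genes in all passed. The 12 Solar libraries of 14 DAF lay wholly below the 12 of 7 DAF for 6 members, BnaC07g22850D, BnaA09g19770D, BnaA10g16660D, BnaA01g25600D, BnaA01g17700D and the histone gene BnaA10g12840D, where this held for 0.338% of all genes. In Lumen, where the rule used the libraries, it held for 2 members, BnaC01g18320D and BnaC01g07670D, and for 0.0274% of the genes with at least 5 TPM.

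Members with a lower Lumen difference or a higher Lumen level passed in Solar more often, as counts show without a test. The share of all genes that passed at like levels was not counted. All genes tested in Solar also include genes under the floor of 5 TPM that the members met. Of the 30 members at or below -1 in Lumen 18 (60.0%) passed, against 88 of 170 (51.8%) of the others. Of the 18 members with at least 100 TPM 14 (77.8%) passed, of the 100 with 10 to under 100 TPM 56 (56.0%), and of the 82 under 10 TPM 36 (43.9%). Since the values are whole numbers of TPM, a member of 5 TPM can move only in coarse steps. Of the 1364 tested genes that fell as far in Lumen but exceeded a limit, 654 (47.9%) passed in the same direction, with a median of -0.66. The 200 genes at the other end of the ranking, whose difference was highest in Lumen, gave 123 higher calls in Solar and 1 lower.

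**Figure D2:**
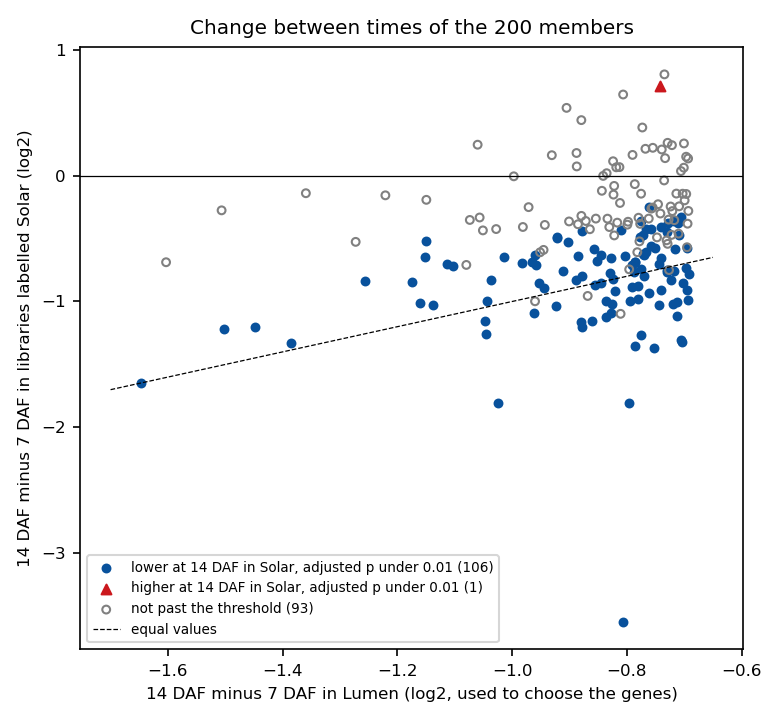
Difference between 14 and 7 DAF (log2) of each of the 200 members in libraries labelled Solar (y axis) against Lumen (x axis, the values used to choose the genes), with 106 members lower at 14 DAF and 1 higher in Solar past the threshold. Most points lie below 0 in Solar (174 members), and the dashed line marks equal values in both hybrids.

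The same comparison was made with fewer libraries whose genotype label was in doubt. At 7 DAF the Solar share of the late-sown libraries still ran from 19.9 to 99.5% in shaded and 68.5 to 99.8% in control plots. Those of 14 DAF had set the marker genes, so share and time are not separated among the late-sown libraries. Within the 12 late-sown Solar libraries 69 of 199 members tested were lower at 14 DAF (5.14% of all genes) and 2 higher (6.27%), with a median of -0.66 and 170 members below 0. With the share of Solar transcripts as a covariate over all 24 libraries 79 members were lower (8.27%) and 0 higher (9.24%), with a median of -0.57. Where only late-sown libraries with a Solar share of at least 99% were kept, 6 of 14 DAF and 3 of 7 DAF, the median was -0.66. Of the control plots at 7 DAF this kept replicate 2 alone, so no counts are given for that fit. The same 60 members passed as lower in the fit as labelled, in the late-sown libraries alone and with the covariate. The share of all genes that passed in all 3 was not counted. The 3 fits use the same late-sown libraries and are not independent of each other.

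Several extremes in Solar were genes whose level differed between the hybrids. The lowest value was that of BnaA03g08760D, at 0 to 77 TPM (median 0) in Solar at 14 DAF, against 0 to 186 TPM (median 75) at 7 DAF. All 6 late-sown Solar libraries of 14 DAF list it at 0, whereas the 6 of Lumen average 59.2 TPM, and its difference of -3.54 ± 0.94 (adjusted p = 0.00662) became -0.85 with the Solar share as a covariate (adjusted p = 0.440). BnaA03g15830D, with 5.33 TPM in late-sown Solar and 55.5 TPM in late-sown Lumen libraries of 14 DAF, likewise had -1.80 ± 0.41 (adjusted p = 0.00239) and -0.60 with the covariate (adjusted p = 0.188). In these libraries 5 further members were at least 4-fold higher in Solar than in Lumen, namely BnaA03g39330D (89.7 and 20 TPM), BnaC03g59100D (21.7 and 4.5 TPM), BnaA02g05080D (13 and 2.17 TPM), BnaA03g41810D (44.0 and 3.83 TPM) and BnaA06g30200D (123 and 8.17 TPM), and none of the 5 passed the test of time over all Solar libraries as labelled. Within the late-sown libraries alone BnaC03g59100D was higher at 14 DAF (0.65, adjusted p = 0.00987). The remaining low values had no such gap. BnaC07g37060D fell by 1.80 ± 0.18 (adjusted p = 1.15e-06), with 8 to 18 TPM (median 10.5) in Solar at 14 DAF, against 18 to 94 TPM (median 37) at 7 DAF. BnaA01g25600D fell by 1.37 ± 0.09 (adjusted p = 3.24e-08), with 18 to 51 TPM (median 35) at 14 DAF, against 60 to 111 TPM (median 80) at 7 DAF. At the other end BnaA03g41810D (0.80, adjusted p = 0.0114), BnaA03g39330D (0.64, adjusted p = 0.0934) and BnaA08g23150D (0.54, adjusted p = 0.0845) did not pass, and BnaAnng31420D rose by 0.71 ± 0.16 (adjusted p = 0.00197), with 22 to 41 TPM (median 37) in Solar at 14 DAF, against 8 to 31 TPM (median 23) at 7 DAF. This rise did not pass within the late-sown libraries (0.56, adjusted p = 0.0311) or with the Solar share as a covariate (0.58, adjusted p = 0.0441).

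The fall between times was then read in each of the 4 combinations of S–S ratio and sowing date. In Solar the median difference was -0.55 in shaded and -0.80 in control plots of the late sowing date, and -0.07 in shaded and -0.72 in control plots of the optimal sowing date. Members lower at 14 DAF past the threshold numbered 35 in shaded late-sown plots (2.66% of all genes), 63 in control late-sown plots (3.5%), 3 in shaded optimally sown plots (0.976%) and 47 in control optimally sown plots (3.04%). Higher ones numbered 0 (2.95%), 1 (4.26%), 2 (1.42%) and 0 (3.15%) in the same order. In shaded, optimally sown Solar plots, 109 members were below 0 and 90 above. These plots are also those in which the share of Solar transcripts differed most between times, with medians of 99.6% at 14 DAF and 18.7% at 7 DAF, and its part in the result was not tested. In Lumen, whose values the rule used, the median was -0.41 in shaded and -0.84 in control plots of the optimal sowing date. It was -1.12 in shaded and -0.97 in control plots of the late date. The Solar counts past the threshold depended on single libraries, and for fits without a library the share of all genes is not given. In shaded late-sown plots 18 to 23 were past the threshold without replicate 2 or 3 of 7 DAF or replicate 1 or 2 of 14 DAF, in control late-sown plots 36 to 40 without replicate 2 of 7 DAF or replicate 1 or 2 of 14 DAF, and in control optimally sown plots 21 to 24 without replicate 1 or 3 of 7 DAF or replicate 2 or 3 of 14 DAF. In shaded optimally sown plots there was 1 without replicate 3 of 14 DAF, 5 without replicate 2 of 14 DAF, and 5 to 7 without shaded late-sown replicates 1 or 2 of 7 DAF or 1 of 14 DAF, which enter only through the shared spread. The difference was below 0 in all 4 combinations for 163 members in Lumen and 85 in Solar, and in all 8 for 73. The Lumen values are those the rule used, so the counts that include them were largely set by the choice of genes. The same counts were not made over all genes. In single Solar combinations 47.4 to 50.9% of the genes with at least 5 TPM in Lumen were below 0.

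**Figure D3:**
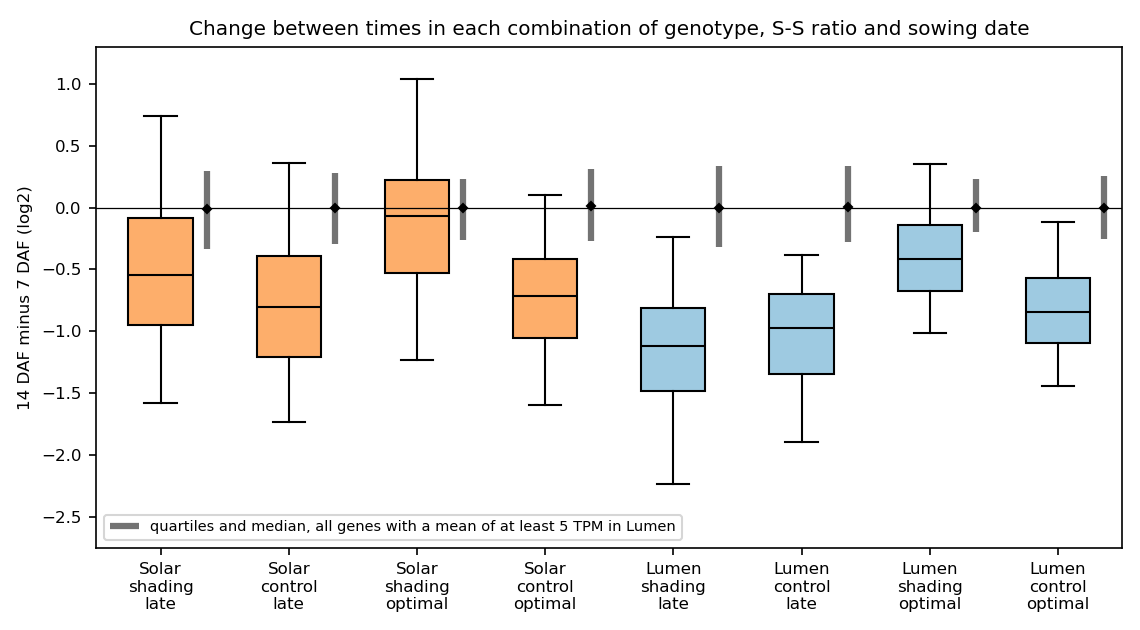
Difference between 14 and 7 DAF (log2, y axis) of the 200 members in each of 8 combinations of hybrid, sowing date and S–S ratio (x axis), with boxes at the quartiles, a line at the median and whiskers from the 5th to the 95th percentile of the members. Grey bars give the quartiles and the median of all 29160 genes with at least 5 TPM in Lumen, which lie about 0, whereas the members' medians run from -1.12 in shaded late-sown Lumen plots to -0.07 in shaded optimally sown Solar plots.

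Shading at 14 DAF was the second comparison that the rule left untouched in Solar. At 14 DAF the shading minus control difference of the members in Solar had a median of 0.41, against 0 over all genes, and was above 0 in 178 of 200 members. It passed the test for 11 members, all higher under shading (0.853% of all genes), and 0 were lower (0.443%). At an unadjusted p under 0.05 there were 101 members (50.5%), against 11622 of 53781 genes (21.6%). At 7 DAF the median was -0.09 and 0 members passed, as did 0% of all genes in either direction, with 36 members and 7823 genes at an unadjusted p under 0.05. Replicate 2 of the optimally sown plots had a Solar share of 1.353% in control and 1.339% in shaded plots at 7 DAF. A library with almost no Solar transcripts thus stood on each side of that comparison, and its part in the result at 7 DAF was not tested. The share of all genes is not given for fits without a library, and the count at 14 DAF was unstable. It was 0 in the late-sown libraries alone and 3 with the Solar share as a covariate (0.141% of all genes higher), and over fits that each omitted 1 library it ran from 3 to 35. It was 35 without replicate 3 of control late-sown plots and 24 without replicate 1 of control optimally sown plots, and 3 to 7 without each of 9 other libraries of 14 DAF, namely replicates 2 and 3 of control optimally sown, 1 and 2 of control late-sown, 2 and 3 of shaded late-sown and 1 to 3 of shaded optimally sown plots.

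Within the sowing dates the shift at 14 DAF had the same sign in Solar but not in Lumen. In Solar it was 0.31 in the late sowing date (157 members above 0) and 0.48 in the optimal one (175 members above 0), with 0 members past the threshold in each, where 0.151% of all genes passed as higher and 0.0242% as lower in the late sowing date and 0% in the optimal one. At an unadjusted p under 0.05 there were 48 members in the late sowing date and 81 in the optimal one. In Lumen the median was -0.01 in the late sowing date (97 members above 0) and 0.46 in the optimal one (178 members above 0, and 87 members past 0.5 in either direction). The rule bounded the mean of both dates, and the optimally sown plots taken alone exceeded that bound for those 87 members. Among the 29160 genes with at least 5 TPM in Lumen, 47.5% (late) and 47.8% (optimal) were above 0 there. Of these genes 5164 were past 0.5 in either direction in the optimal sowing date. Of the genes that fell as far in Lumen but exceeded a limit, 208 of 1364 (15.2%) were higher under shading at 14 DAF in Solar with a median of 0.76, and the 200 genes with the highest difference between times in Lumen had a median of -0.51.

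**Figure D4:**
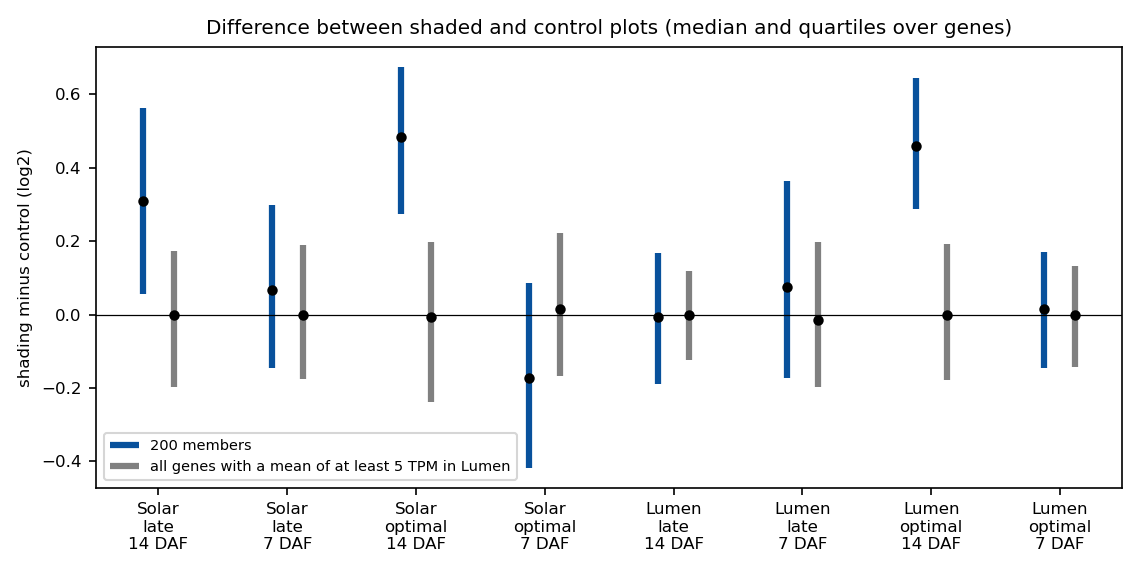
Shading minus control difference (log2, y axis) at each genotype, sowing date and time (x axis), as the median (point) and quartiles (bar) over the 200 members and, in grey, over all genes with at least 5 TPM in Lumen. The members' bars lie wholly above 0 at 14 DAF in Solar late (median 0.31), Solar optimal (0.48) and Lumen optimal (0.46) plots, and cross 0 in the others.

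The member with the largest shift under shading was BnaA05g00280D, with 17 to 39 TPM (median 24.5) in the 6 shaded Solar libraries of 14 DAF, against 8 to 12 TPM (median 10) in the 6 control libraries. The groups did not overlap, and the difference was 1.31 ± 0.20 (adjusted p = 0.00221). BnaA02g04280D had 9 to 18 TPM (median 13) under shading, against 4 to 8 TPM (median 6) in control plots, without overlap (1.08 ± 0.14, adjusted p = 0.000641). BnaA05g30680D had 4 to 9 TPM (median 6) under shading, against 2 to 4 TPM (median 3) in control plots, and the groups met at 4 TPM (1.02 ± 0.13, adjusted p = 0.000514). The remaining 8 were BnaCnng38040D, BnaA08g16560D, BnaCnng23000D, BnaA08g20000D, BnaC08g35090D, BnaC05g11240D, BnaA06g08200D and BnaC04g04770D, with differences of 0.61 to 0.87. BnaC08g35090D is the only annotated gene among the 11 and is described below. All 11 had a lower Lumen level at 14 than at 7 DAF by the rule, and the falls of BnaCnng38040D and BnaC05g11240D in Solar did not pass the test (adjusted p = 0.124 and 0.0369).

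Averaged over both times, 6 members were higher (1.32% of all genes) and 0 lower (0.249%) in shaded than in control Solar plots. They were BnaA05g00280D (0.72), BnaA05g30680D (0.63), BnaC05g11240D (0.46), BnaC04g04770D (0.43), BnaA04g08280D (0.42) and BnaCnng61830D (0.40). The count was 0 within the late-sown libraries, where 0.415% of all genes passed as higher and 0.0445% as lower. It was 18 without replicate 3 of control late-sown plots at 14 DAF, 12 without replicate 2 of shaded optimally sown plots at 7 DAF, and 2 or 3 without each of 15 others. The interaction of time and S–S ratio had a median of 0.44 and was above 0 in 176 members, which is the same shift written as a smaller fall under shading. It passed the test for 0 members, where it passed for 0.00186% of all genes (1 gene), and 74 members and 9413 genes had an unadjusted p under 0.05. It gave 12 members when replicate 2 of optimally sown Solar at 7 DAF was left out in both S–S ratios, 10 without that replicate of the shaded plots alone, 3 without replicate 1 of control optimally sown plots at 14 DAF, and 1 each without replicate 3 of control and replicate 1 of shaded late-sown plots at 14 DAF. The share of all genes is not given for the fits without libraries. Their counts show only how far the calls depend on single libraries.

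For sowing date 12 members were lower (4% of all genes) and 6 higher (4.47%) in late-sown than in optimally sown Solar plots, which makes 9% of the members in either direction, against 8.46% of all genes. The largest differences were those of BnaA03g08760D (-4.21), BnaA03g15830D (-1.87), BnaA10g12970D (-1.46), BnaA03g41810D (1.39) and BnaA09g29480D (-1.18). The first of them had 0 to 126 TPM (median 0) in late-sown and 0 to 186 TPM (median 72.5) in optimally sown Solar libraries, and it and BnaA03g15830D and BnaA03g41810D are also among those that differ at least 4-fold between the hybrids. The share of Solar transcripts was higher in late-sown than in optimally sown plots. With this share as a covariate 0 of the 18 calls were made (0.0669% of all genes lower and 0.158% higher), and the count was 11 when replicate 2 of optimally sown Solar at 7 DAF was left out in both S–S ratios. It was 11 without replicate 3 of control optimally sown or replicate 1 of control late-sown plots at 14 DAF, and 9 without replicate 2 of shaded late-sown plots at 7 DAF. For fits that left out libraries the share of all genes is not given.

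The fall between times depended on sowing date for 12 members in Solar. It was deeper in late-sown plots for 9 (0.363% of all genes) and shallower for 3 (0.377%). The interaction was -1.42 ± 0.25 for the histone H2B gene BnaC03g55640D (adjusted p = 0.00433), whose difference between times was -2.06 in late-sown and -0.64 in optimally sown Solar plots. In Lumen it went the other way, with -0.41 in late-sown and -1.16 in optimally sown plots. BnaA10g16660D had the same arrangement, with -1.84 in late-sown and -0.70 in optimally sown Solar plots and with -0.29 and -1.26 at these dates in Lumen. The 3 of opposite sign, BnaC01g37160D (3.02), BnaA09g08410D (2.27) and BnaAnng04020D (1.73), had differences between times of 1.65, 0.31 and 0.30 in late-sown Solar plots, against -1.38, -1.96 and -1.43 in optimally sown ones. With the Solar share as a covariate the count was 5 (0.318% of all genes deeper and 0.333% shallower), as it was with the replicate number as a block. Over fits that each omitted 1 library it ran from 3, without replicate 2 of control late-sown plots at 7 DAF, to 18, without replicate 3 of these plots at 14 DAF, and lay at 6 or fewer without 16 of the 24. For the block and for fits without a library the share of all genes is not given.

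Of the 200 members, 21 were annotated in the readable tables of the study, which name 5279 genes, and these tables list genes that the study selected on the same samples. The share of annotated members (10.5%) was near that of all genes within the limits (11%). Roles are given by the closest Arabidopsis gene or by the protein domain.

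Chromatin proteins formed the largest annotated group, with 4 core histone genes. The H2A gene BnaA10g12840D had 46 to 132 TPM (median 74.5) in Solar at 14 DAF, against 134 to 295 TPM (median 201) at 7 DAF, and 56 to 91 TPM (median 74) in Lumen at 14 DAF, against 72 to 167 TPM (median 124.5) at 7 DAF. The Solar libraries of the 2 times did not overlap, and the gene fell by 1.32 ± 0.10 (adjusted p = 9.63e-08). Of the H2B genes, BnaC03g55640D had 14 to 48 TPM (median 21.5) in Solar at 14 DAF, against 38 to 97 TPM (median 68) at 7 DAF, and 13 to 33 TPM (median 28.5) in Lumen at 14 DAF, against 26 to 68 TPM (median 49) at 7 DAF. It overlapped in Solar only through the shaded, optimally sown libraries, and fell by 1.35 ± 0.12 (adjusted p = 4.13e-07). BnaC03g11030D had 7 to 23 TPM (median 12.5) in Solar at 14 DAF, against 11 to 62 TPM (median 27) at 7 DAF, and 18 to 36 TPM (median 27.5) in Lumen at 14 DAF, against 30 to 81 TPM (median 56) at 7 DAF. It fell by 1.16 ± 0.23 (adjusted p = 0.000755), and with the Solar share as a covariate the difference of -0.72 did not pass (adjusted p = 0.0476). The H3 gene BnaA10g21870D had 27 to 88 TPM (median 44.5) in Solar at 14 DAF, against 54 to 130 TPM (median 102.5) at 7 DAF, and 35 to 62 TPM (median 45) in Lumen at 14 DAF, against 39 to 121 TPM (median 80.5) at 7 DAF. It fell by 0.99 ± 0.11 (adjusted p = 4.62e-06). All 4 kept their call when each of the 24 Solar libraries was left out in turn.

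Other annotated histone genes also fell. Of 35 annotated histone genes tested in Solar 21 were lower at 14 DAF and 0 higher, with a median of -0.61, against 0.01 over all genes. Of all genes 11.1% were lower and 11.8% higher. The annotated genes were selected by the study on these samples, so list and all genes are not like for like. The list was not counted in the late-sown libraries alone or with the Solar share as a covariate. In Lumen 30 of the 33 histone genes with at least 5 TPM had a difference below 0, with a median of -0.39, so most fell less than the limit of the ranking. Members make up 4 of the 21 that passed, and their differences of -1.35 to -0.99 lie below the median of the list. Genes not chosen include the H2A gene BnaC09g35230D (-1.14 ± 0.10) and the H4 gene BnaA05g06970D (-1.11 ± 0.08). Copies of a histone gene can be nearly identical in sequence, which was not examined here, and how the reads were shared among them is uncertain for each single gene.

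**Figure D5:**
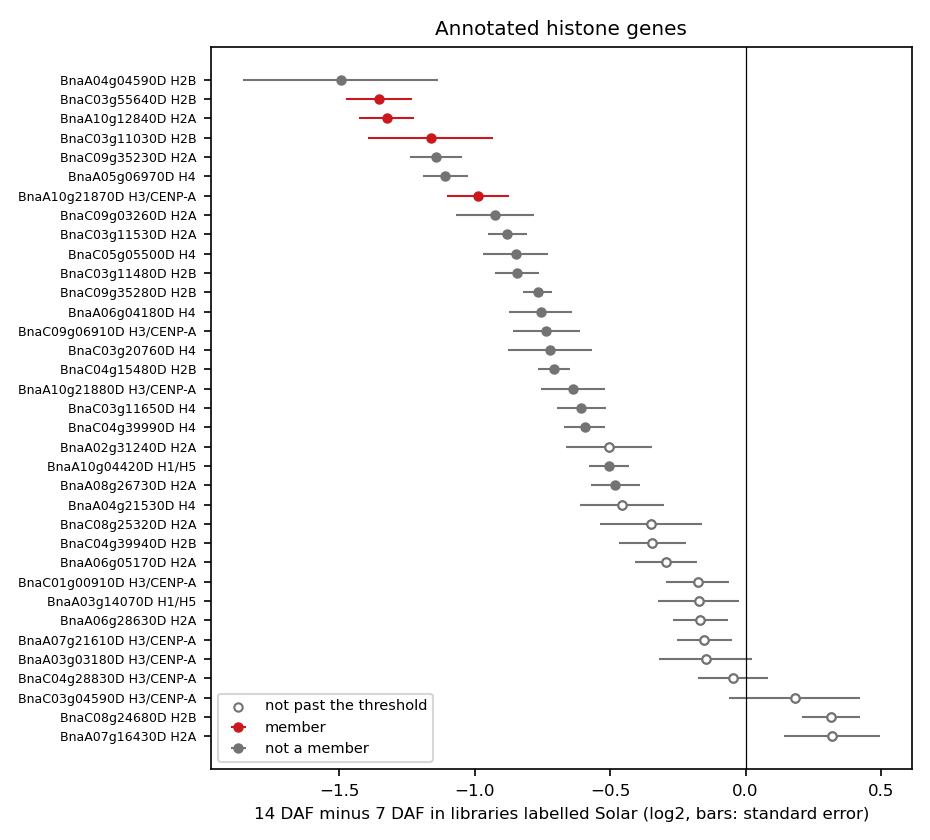
Difference between 14 and 7 DAF (log2, x axis) in libraries labelled Solar for the 35 annotated histone genes (y axis, lowest at the top), with bars of 1 standard error. Filled points are past the threshold, the 4 members are red, and the values run from -1.495 for an H2B gene to 0.32 for an H2A gene, with 21 genes lower at 14 DAF and 0 higher.

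Next in the order of roles came protein turnover. BnaC07g20300D holds a cystatin domain and is closest to an Arabidopsis cystatin, a class of small proteins that inhibit papain-like cysteine proteases. It had 78 to 334 TPM (median 186) in Solar at 14 DAF, against 310 to 552 TPM (median 451) at 7 DAF, and 83 to 323 TPM (median 137.5) in Lumen at 14 DAF, against 273 to 501 TPM (median 385.5) at 7 DAF. The highest value of 14 DAF in each genotype came from a shaded, optimally sown plot and was the only one to reach the 7 DAF range. It fell by 1.33 ± 0.12 in Solar (adjusted p = 4.12e-07), by 1.36 in late-sown plots alone (adjusted p = 0.00170) and by 1.40 with the Solar share as a covariate (adjusted p = 6.74e-06). Of the 10 members lowest in Lumen it had the highest mean level. BnaC05g39370D, of the subtilase family of serine proteases, had 19 to 53 TPM (median 41.5) in Solar at 14 DAF, against 24 to 52 TPM (median 35.5) at 7 DAF, and 6 to 29 TPM (median 13.5) in Lumen at 14 DAF, against 21 to 33 TPM (median 25.5) at 7 DAF. Its Solar groups overlapped wholly (0.07 ± 0.13, adjusted p = 0.736).

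Among the genes of signalling and regulation, BnaA05g06820D, closest to a lectin receptor kinase of Arabidopsis, had 5 to 12 TPM (median 8.5) in Solar at 14 DAF, against 10 to 17 TPM (median 15) at 7 DAF, and 4 to 15 TPM (median 8.5) in Lumen at 14 DAF, against 12 to 18 TPM (median 15) at 7 DAF, and fell by 0.76 ± 0.10 (adjusted p = 1.17e-05). BnaA04g08280D, with a C2 domain, a module that binds calcium and membranes in many proteins, had 22 to 59 TPM (median 45) in Solar at 14 DAF, against 56 to 84 TPM (median 62) at 7 DAF, and 28 to 66 TPM (median 35.5) in Lumen at 14 DAF, against 47 to 100 TPM (median 74.5) at 7 DAF, and fell by 0.63 ± 0.09 (adjusted p = 1.99e-05). For both genes the ranges of the times overlapped in part. BnaC08g35090D, closest to ATHB6, a homeodomain-leucine zipper transcription factor known from abscisic acid responses in Arabidopsis, had 18 to 50 TPM (median 32) in Solar at 14 DAF, against 35 to 61 TPM (median 52.5) at 7 DAF, and 20 to 58 TPM (median 29.5) in Lumen at 14 DAF, against 39 to 63 TPM (median 50.5) at 7 DAF. It fell by 0.58 ± 0.09 (adjusted p = 4.99e-05). At 14 DAF it had 31 to 50 TPM (median 42) in shaded Solar plots, against 18 to 33 TPM (median 29.5) in control plots, a difference of 0.64 ± 0.12 (adjusted p = 0.00652).

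In the other genes of signalling the Solar test was not passed. BnaC06g33640D, with the TIFY domain of JAZ proteins, which repress jasmonate responses, had 21 to 63 TPM (median 37) in Solar at 14 DAF, against 18 to 40 TPM (median 23.5) at 7 DAF, and 12 to 58 TPM (median 24) in Lumen at 14 DAF, against 29 to 68 TPM (median 39.5) at 7 DAF. The Solar difference of 0.44 ± 0.18 had the opposite sign to that in Lumen and did not pass (adjusted p = 0.0666), and the difference between the hybrids was not tested. BnaA10g20580D, closest to the mechanosensitive ion channel gene MSL10, had 3 to 7 TPM (median 6) in Solar at 14 DAF, against 5 to 9 TPM (median 6.5) at 7 DAF, and 2 to 8 TPM (median 4) in Lumen at 14 DAF, against 6 to 10 TPM (median 7.5) at 7 DAF (-0.39 ± 0.11, adjusted p = 0.0106).

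Members tied to the epidermis, the wall or metabolism were mixed. BnaA10g18500D, a protodermal factor, which is a proline-rich protein of the outer cell layer, was among the highest, with 449 to 930 TPM (median 695.5) in Solar at 14 DAF, against 686 to 926 TPM (median 832.5) at 7 DAF, and 187 to 932 TPM (median 604.5) in Lumen at 14 DAF, against 642 to 1210 TPM (median 873.5) at 7 DAF. Its difference in Solar was small (-0.25 ± 0.10, adjusted p = 0.0615). BnaC01g02340D, closest to a beta-galactosidase, which trims galactose from wall polysaccharides, had 2 to 5 TPM (median 4) in Solar at 14 DAF, against 4 to 11 TPM (median 6) at 7 DAF, and 4 to 12 TPM (median 5) in Lumen at 14 DAF, against 6 to 11 TPM (median 9) at 7 DAF. It fell by 0.74 ± 0.13 (adjusted p = 0.000208), and did not pass in late-sown plots alone (-0.54, adjusted p = 0.0529) or with the Solar share as a covariate (-0.48, adjusted p = 0.0156). BnaA04g02970D, with a strictosidine synthase domain, had 1 to 19 TPM (median 3.5) in Solar at 14 DAF, against 2 to 10 TPM (median 6.5) at 7 DAF, and 5 to 20 TPM (median 7.5) in Lumen at 14 DAF, against 9 to 21 TPM (median 14.5) at 7 DAF (-0.61 ± 0.33, adjusted p = 0.166). BnaA06g30200D, with a glyoxalase domain, showed the widest spread, with 23 to 351 TPM (median 155.5) in Solar at 14 DAF, against 15 to 484 TPM (median 133.5) at 7 DAF, and 6 to 11 TPM (median 10) in Lumen at 14 DAF, against 10 to 22 TPM (median 16.5) at 7 DAF (0.25 ± 0.45, adjusted p = 0.693). At 14 DAF its Solar libraries lay wholly above those of Lumen.

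The single photosynthesis gene was BnaA04g08570D, which encodes a small subunit of Rubisco, the enzyme that fixes CO2. It had 49 to 184 TPM (median 106.5) in Solar at 14 DAF, against 30 to 189 TPM (median 129.5) at 7 DAF, and 36 to 108 TPM (median 60.5) in Lumen at 14 DAF, against 61 to 158 TPM (median 96) at 7 DAF, and did not pass in Solar (0.15 ± 0.17, adjusted p = 0.510). Rubisco small subunits are a family of near-identical copies, so reads may be split among them. Of the other annotated members BnaC06g35380D, of a family of unknown function, had 2 to 6 TPM (median 4) in Solar at 14 DAF, against 4 to 10 TPM (median 8) at 7 DAF, and 4 to 9 TPM (median 6) in Lumen at 14 DAF, against 7 to 16 TPM (median 12) at 7 DAF. It fell by 0.86 ± 0.11 (adjusted p = 8.92e-06). The Arabidopsis relatives of BnaA05g17390D (-0.47 ± 0.11, adjusted p = 0.00291) and BnaA08g09640D (-0.58 ± 0.14, adjusted p = 0.00332) carry no domain name in the tables, and their Solar levels were 4 to 10 TPM (median 5.5) and 4 to 12 TPM (median 6.5) at 14 DAF, against 6 to 12 TPM (median 9) and 7 to 17 TPM (median 10.5) at 7 DAF. In Lumen they had 2 to 6 TPM (median 4) and 3 to 8 TPM (median 6) at 14 DAF, against 5 to 9 TPM (median 7) and 5 to 18 TPM (median 8.5) at 7 DAF. Both fell in Solar with overlapping ranges, and neither passed in the late-sown plots alone, with -0.60 for BnaA05g17390D (adjusted p = 0.0170) and -0.70 for BnaA08g09640D (adjusted p = 0.0107). BnaC01g07670D had 9 to 19 TPM (median 14) in Solar at 14 DAF, against 12 to 29 TPM (median 17.5) at 7 DAF, and 8 to 13 TPM (median 9.5) in Lumen at 14 DAF, against 14 to 27 TPM (median 22) at 7 DAF (-0.44 ± 0.14, adjusted p = 0.0181). BnaC07g45080D had 2 to 8 TPM (median 6) in Solar at 14 DAF, against 5 to 11 TPM (median 6.5) at 7 DAF, and 2 to 9 TPM (median 4.5) in Lumen at 14 DAF, against 7 to 11 TPM (median 7) at 7 DAF (-0.37 ± 0.16, adjusted p = 0.0799). Neither of these passed the test in Solar.

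Of the 5 members with the highest mean level, 3 unannotated genes fell in Solar. BnaA02g10050D had 350 to 1493 TPM (median 842.5) in Solar at 14 DAF, against 1269 to 2257 TPM (median 1557) at 7 DAF, and 619 to 1675 TPM (median 956) in Lumen at 14 DAF, against 1099 to 2606 TPM (median 1584.5) at 7 DAF. It fell by 0.93 ± 0.14 (adjusted p = 5.12e-05). BnaA05g29010D had 258 to 970 TPM (median 616.5) in Solar at 14 DAF, against 654 to 2448 TPM (median 1154) at 7 DAF, and 238 to 899 TPM (median 330.5) in Lumen at 14 DAF, against 369 to 1760 TPM (median 728.5) at 7 DAF. It fell by 1.04 ± 0.15 (adjusted p = 4.17e-05). BnaA03g53960D had 61 to 300 TPM (median 141) in Solar at 14 DAF, against 245 to 543 TPM (median 338) at 7 DAF, and 77 to 375 TPM (median 203) in Lumen at 14 DAF, against 188 to 492 TPM (median 336.5) at 7 DAF. It fell by 1.16 ± 0.16 (adjusted p = 3.37e-05). All 3 passed in the late-sown plots alone and with the covariate. BnaC02g20710D did not follow them. It had 761 to 4481 TPM (median 966.5) in Solar at 14 DAF, against 789 to 1245 TPM (median 906) at 7 DAF, and 556 to 1341 TPM (median 895.5) in Lumen at 14 DAF, against 828 to 4555 TPM (median 1215) at 7 DAF, with 1 Solar library of 14 DAF and 3 late-sown Lumen libraries of 7 DAF (2852, 4426 and 4555 TPM) that stood far above the rest (0.22 ± 0.21 in Solar, adjusted p = 0.431).

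Other pathways of early seed growth, taken as lists of annotated genes, gave few members. Of 170 ribosomal protein genes 58 were lower and 5 higher at 14 DAF in Solar, with a median of -0.25, and 0 are members. Over all genes 11.1% were lower and 11.8% higher. Of 6 DNA replication genes 0 passed in either direction in Solar, while in Lumen the 4 with at least 5 TPM were all below 0, with a median of -0.54. Of 33 genes matched by name as cell cycle and spindle 4 were lower and 4 higher. The lower ones include BnaC03g06010D (-0.76), annotated as a tetracycline resistance protein, which was matched only by part of its name. Histone and ribosomal genes were the lists in which lower calls in Solar outnumbered higher ones most, though the annotated genes were selected by the study on these samples. Of 109 peptidase genes 12 were lower and 18 higher, with 1 member, and of 81 cell wall genes 14 were lower and 25 higher, with 0 members. Of 11 photosynthesis genes 3 were lower and 1 higher, with 1 member. Lists of later seed life leaned upward in Solar, with 0 lower and 4 higher of 9 storage and oil genes, and 1 lower and 4 higher of 12 lipid transfer and albumin-fold genes. In Lumen the 7 storage and oil genes with at least 5 TPM had a median of 0.35, with 2 below 0. The 8 lipid transfer and albumin-fold genes at that level went the other way in Lumen, with a median of -0.31 and 5 below 0. Of 19 MADS genes 2 were lower and 8 higher, and of 254 other transcription factor genes 25 were lower and 33 higher. Translation factors (31 genes, 4 lower and 3 higher), chaperones (74 genes, 7 lower and 9 higher) and sugar genes (50 genes, 7 lower and 7 higher) were divided. When each library was scaled to a sum of 1000000, the histone list had 22 lower and 0 higher, other transcription factors 32 lower and 23 higher, chaperones 9 lower and 6 higher, and peptidases 15 lower and 13 higher, so for the last 3 the balance turned.

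The members shared little else that could be read from the files. By their identifiers 90 (45.0%) lay in the A subgenome, against 46.5% of the genes within the limits, and 109 (54.5%) in the C subgenome, against 53.2%, and 29 (14.5%, against 10.4%) were on no numbered chromosome. The chromosomes that held most of them were C03 with 15 and A03 and C02 with 14 each. Within 5 steps of the identifier order there were 4 pairs, BnaA07g38770D with BnaA07g38790D, BnaC02g21550D with BnaC02g21570D, BnaC06g39200D with BnaC06g39240D, and BnaC09g04940D with BnaC09g04950D. No member repeated the profile of another gene across the 48 libraries, and no 2 annotated members had the same closest Arabidopsis gene.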

How the data were processed

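RNA was sequenced from seeds in 48 libraries, 24 of each hybrid, in 16 groups of 3. The authors quantified reads by pseudo-alignment to the rapeseed transcriptome (kallisto 0.46), normalized the libraries with sleuth, and deposited a score per gene, namely its normalized TPM without decimals. Counts of reads were not used, which leaves the depth unknown, and intervals from depth are left out. The design had assumed TPM, and the same test was applied to the score. The paper describes 3 replicates in a split-split plot, with sowing date on main plots, S–S ratio on subplots and hybrids within these. The labels give only a replicate number. The main fit took all libraries as independent, without a term for plots. The p-values measure the spread between these samples, and those for sowing date and S–S ratio may understate the spread between plots. All columns were mapped to a sample by name (0 unmapped).

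Values were used as deposited, as log2(TPM + 0.5), so a fold change of a low gene is understated. limma 3.58.1 in R 4.3.3 (with the data.table package, version 1.17.8) fitted 1 mean for each of 8 Solar groups (16 residual degrees of freedom, empirical Bayes with a mean-variance trend) to genes that reached 1 TPM in 47% or more of the 24 libraries. Contrasts were time, S–S ratio, sowing date, their interactions and single combinations, with Benjamini-Hochberg adjustment across the genes tested and a threshold of 0.01. A mean over combinations weights each equally. Summaries and plots were made in Python 3.11.15 (numpy 2.4.6, pandas 2.3.3, matplotlib 3.10.9). The fits were tested on simulated data.

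The members, gene lists, markers, tests and alternatives were chosen with earlier results of these data known. Named members are the 10 lowest in Lumen, the 5 with the highest mean, all 21 annotated, the 5 lowest and 5 highest in Solar, the 3 on each side of the limit, the 5 with the largest called difference for S–S ratio, sowing date and each interaction, and genes that a count singles out, which were named after their values were seen. Solar-share fits and the reading of shading at each time were chosen after seeing the data. Lists and roles come from protein domain names and Arabidopsis relatives in the readable supplementary tables. Sequences and genome coordinates were not used here.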

Additional observations from a re-analysis of the deposited data

Results flagged for a closer look

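The fall between 7 and 14 DAF differed between sowing dates in Solar for 12 members by the interaction test (limma, adjusted p of 0.000266 to 0.00961), where 0.74% of all genes passed in either direction. The log2 difference of the differences, late minus optimal sowing date, was 3.02 for BnaC01g37160D, 2.27 for BnaA09g08410D and 1.73 for BnaAnng04020D. It was -1.42 for the histone H2B gene BnaC03g55640D, -1.16 for BnaA08g31050D, -1.14 for BnaA10g16660D, -1.09 for BnaA10g13680D, -0.98 for BnaA06g33260D, -0.94 for BnaCnng10730D, -0.93 for BnaA03g09170D, -0.90 for BnaC09g36190D and -0.80 for BnaC01g18320D. The share of Solar transcripts also differed between these dates. With it as a covariate 3 members passed as deeper (0.318% of all genes) and 2 as shallower (0.333%) in late-sown plots. With the replicate number as a block 5 members passed, and the share of all genes is not given for that fit. In Lumen, which was not tested, BnaC01g37160D had differences between times of -0.50 in late-sown and -0.88 in optimally sown plots, and BnaA08g31050D of -0.78 and -0.65.

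In 3 members the difference between times was above 0 in all 4 Solar combinations and below 0 in all 4 Lumen combinations, and this difference between the hybrids was not tested. The Solar values were 0.71 for BnaAnng31420D, 0.21 for BnaC05g38790D and 0.11 for BnaA06g02080D, of which the first alone passed the test of time within Solar as labelled. BnaAnng31420D did not pass within the late-sown libraries (adjusted p = 0.0311) or with the Solar share as a covariate (adjusted p = 0.0441).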

How the results depend on the processing

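Members lower at 14 DAF in Solar numbered 69 in the late-sown libraries alone and 22 in those with a Solar share of at least 99%, with medians of -0.66 in both. The late sowing date alone gives no value for sowing date, its interaction with time or the optimally sown combinations. Members higher at 14 DAF numbered 2 with a filter at a mean of 5 TPM, 3 at an adjusted p under 0.05, 2 where a single fit took all 48 libraries, 2 in the late-sown libraries and 0 with the Solar share as a covariate. At an adjusted p under 0.05 there were 23 for S–S ratio, 38 for sowing date, 42 for shading at 14 DAF, 1 for time by S–S ratio and 29 for time by sowing date, and 84 in control optimal, 17 in shaded optimal and 64 in shaded late-sown plots. With all 48 libraries these were 10 for S–S ratio, 20 for shading at 14 DAF, 2 and 20 for the interactions and 13 in shaded optimal plots. The late-sown libraries alone gave 0 for S–S ratio, 0 for shading at 14 DAF, 35 in control and 17 in shaded plots, and those of a share of at least 99% gave 0, 0, 1 and 4. With the covariate there were 0 for sowing date, 3 for shading at 14 DAF, 5 for time by sowing date and 1 in shaded optimal plots. Without both Solar libraries of 7 DAF, optimal sowing and replicate 2 there were 11 for sowing date and 12 for time by S–S ratio, and without the mean-variance trend 6 for time by sowing date. The cause was not tested. The share of all genes under each setting is not given beside these counts or those that follow. They show only how far the calls depend on the setting. For sowing date the main count was near the share of all genes (9% of the members, against 8.46%).

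With each library left out, lower members numbered 95 to 116 and higher ones 1 to 3, S–S ratio gave 2 to 18, sowing date 9 to 24, shading at 14 DAF 3 to 35, time by S–S ratio 0 to 10 and time by sowing date 3 to 18. The combinations gave 21 to 55 (control optimal), 1 to 7 (shaded optimal), 36 to 81 (control late) and 18 to 43 (shaded late). The medians ran from -0.58 to -0.51 for time and from 0.33 to 0.49 for shading at 14 DAF. Without each replicate number, which takes 8 libraries at once, these were 62 to 66, 0 to 1, 0 to 1, 0 to 8, 0 to 1, 0 and 0 to 1, then 0 to 15, 0 to 2, 10 to 30 and 1 to 14, with medians of -0.57 to -0.53 and 0.28 to 0.46. The rule itself kept 89 to 115 of the 200 members without a replicate number in Lumen, 168 with a pseudocount of 1, 137 with library sums of 1000000 and 196 with median-ratio scaling.

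Scaling to a sum of 1000000 moved the median time difference of all genes from 0.01 to -0.04 and the share of higher calls from 51.7 to 41.3% (52% with median-ratio scaling), with 119 lower members. With the replicate number as a block there were 104 lower members and 5 for time by sowing date. Replicate numbers did not pair the samples (r of -0.0364 to 0.0864 over 12 pairs, the own number best in 5).

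Of 440 values of named members under other settings 391 kept direction and call, as did 892 of 918 with libraries left out. Signs turned, none past the threshold, for BnaA06g22570D (0.0075 late-sown, 0.18 with the covariate, 0.26 at a share of 99%, and -0.46 to 0.051 with libraries left out), BnaA07g30540D (0.44 late-sown and at 99%, and -0.34 to 0.025), BnaA02g05080D (0.27 late-sown, 0.024 without the 7 DAF pair of replicate 2, and -0.43 to 0.32), BnaC05g39370D (-0.36, -0.28 and -0.56, and -0.017 to 0.21), BnaA04g02970D (0.29 with the covariate, 0.045 at 99%), BnaA06g30200D (-0.92, -0.21 without that pair, -0.89 and -1.37) and BnaA04g08570D (-0.42, -0.20 and -0.45).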
